A study of Homo sapiens with 6 samples.

Results

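The endoplasmic reticulum (ER) is where secreted and membrane proteins fold, and the 10 genes described here encode chaperones, disulfide isomerases, degradation factors and a transcription factor of that compartment. They were taken by symbol, with no measured value in the rule (*HSPA5*, *HSP90B1*, *CALR*, *PDIA4*, *PDIA6*, *DNAJB9*, *SDF2L1*, *SEL1L*, *HERPUD1* and *XBP1*), from the 29744 genes of the deposited table. All 10 were listed, and all 10 were among the 13373 genes that passed the filter on low values (a mean of at least 0.5 CPM, reads per 1000000 counted reads, over the 6 samples). The samples were LNCaP cells, an androgen-sensitive human prostate cancer line, given 250 nM CDKI-73 for 4 h (3 biological replicates) or the vehicle DMSO for the same 4 h (3 biological replicates). All were grown in RPMI-1640 with serum and no other agent is named. CDKI-73 inhibits CDK9, a kinase that releases paused RNA polymerase II into elongation, and the comparison asks how the transcripts of these genes changed in the first hours of treatment. The titles of the DMSO samples also carry the name of the compound, and every direction rests on their treatment label.

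Unfolded proteins in the ER are bound by chaperones of the lumen, of which BiP is the most widely known. Proteins that fail to fold are pulled back into the cytosol and destroyed by the proteasome, a route called ER-associated degradation (ERAD). When unfolded proteins accumulate, 3 sensors in the ER membrane start the unfolded protein response (UPR), in which the transcription factors ATF6 and XBP1 switch on chaperone and ERAD genes. Prostate luminal cells are secretory and rely on this machinery.

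Several members carry in their promoters a known binding sequence of the UPR, the ER stress element (ERSE), spelled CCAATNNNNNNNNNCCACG, or its shorter relative ERSE-II, spelled ATTGGNCCACG. The stretches are shown because these elements stand both in members that fell with CDKI-73 and in members that did not. The promoter windows came from RefSeq (GRCh38.p14, the assembly also called hg38), from 250 bases before to 50 after each annotated start, and all 10 members matched. Both strands were searched. An exact ERSE was found in 5 members and in 25 of 27305 genes with a window (0.0916%), those members included. An exact ERSE-II was found in 2 members and in 19 genes (0.0696%). In the lines below each stretch is written 5′ to 3′ on the strand on which the element reads as spelled, with the element in capitals.
HSPA5: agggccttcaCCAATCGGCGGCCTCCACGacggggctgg
HSP90B1 distal: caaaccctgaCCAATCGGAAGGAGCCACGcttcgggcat
HSP90B1 proximal: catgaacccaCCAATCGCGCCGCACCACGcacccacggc
CALR: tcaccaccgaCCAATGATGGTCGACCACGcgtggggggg
PDIA6: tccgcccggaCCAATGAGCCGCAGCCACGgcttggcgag
XBP1: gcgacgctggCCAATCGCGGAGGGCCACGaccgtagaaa
HERPUD1: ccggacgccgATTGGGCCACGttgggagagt
SDF2L1: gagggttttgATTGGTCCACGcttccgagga

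The *HSPA5* stretch lies at chr9:125241381-125241419 on the minus strand, with the element 66 to 48 bases before the start. The 2 elements of *HSP90B1* lie at chr12:103930206-103930244 (plus strand) and chr12:103930311-103930349 (minus strand). The others lie at chr19:12938374-12938412 (*CALR*, minus strand), chr2:10812843-10812881 (*PDIA6*, minus strand), chr22:28800593-28800631 (*XBP1*, minus strand), chr16:56932015-56932045 (*HERPUD1*, plus strand) and chr22:21642104-21642134 (*SDF2L1*, minus strand). *PDIA4*, *PDIA6* and *XBP1* had 2 windows each, the other members 1. The *PDIA6* stretch stands before an internal start, within the gene's interval (chr2:10783391-10837712), while the span given below is that of the whole gene. The windows of *PDIA4*, *DNAJB9* and *SEL1L* held neither sequence in this exact spelling. The core of a further element, TGACGTG, stood in the windows of 2.40% of genes and of 0 members. A match is a description of the letters, and binding was not measured.

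CPM give each gene's share of the counted reads of its sample, and the depth inferred from the step between values was 46.1 to 60.9 M counted reads. Luminal prostate markers were present in every sample, all 8 between 143.0 and 3336 CPM. Of 9 markers of other cell types, 6 (*PTPRC*, *COL1A2*, *PECAM1*, *KRT5*, *TP63* and *CHGA*) stayed at 0.04 CPM or less and *COL1A1*, *VWF* and *SYP* reached at most 14.9 CPM. Replicate 3 of CDKI-73 stood apart from the other 2 of its group, with a chi-square per gene of 26.1 and 28.6 against 3.36 between them. Among the DMSO replicates it was 4.39 to 14.7. Genes were tested with limma on log2(CPM + 0.1), with Benjamini-Hochberg adjustment over all 13373 genes, and a gene passed where the adjusted p was at most 0.05.

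After CDKI-73 the members split. *DNAJB9*, *XBP1* and *HERPUD1* fell to 11.8%, 18.3% and 27.3% of their DMSO means, and *SEL1L* fell to 69.3%. The abundant chaperones and isomerases did not fall with them: *HSP90B1*, *CALR*, *PDIA4*, *PDIA6* and the low-level *SDF2L1* took a larger share of the reads, by 1.20 to 1.27-fold. These 5 calls were lost when samples were scaled to *GAPDH*, *HPRT1* and *ACTB*, with log2 fold changes slightly below 0 that did not pass. Scaling by TMM or the upper quartile enlarged the rises. On the deposited scale *HSPA5* was at 97.8% of its DMSO mean, and its call changed with the scaling. By limma, 4 members were lower (48.2% of all tested genes were) and 5 were higher (24.2% of all tested genes). At a threshold of 2-fold in addition, 3 were lower (22.3% of all genes) and 0 were higher (1.11% of all genes). Beside this 0, the 5 higher members also had an unadjusted p under 0.05, and voom in limma gave 0 as well. The groups did not overlap in 8 members (75.9% of all genes), 4 of them below DMSO (50.0% of all genes) and 4 above it (25.9% of all genes). The share of lower members was near that of all genes and the share of higher members was above it, a difference that was not tested. The median log2 fold change was 0.12 for the members and −0.18 for all tested genes. Shares also differed with level. Of the 4957 tested genes with a mean of 20 to 100 CPM, 54.3% were lower (21.5% by at least 2-fold) and 22.8% higher. That range held *DNAJB9*, *XBP1*, *HERPUD1* and *SDF2L1*. *SEL1L* lay among the 1701 genes at 100 to 300 CPM, of which 32.5% were lower and 41.5% higher. *HSPA5*, *HSP90B1*, *CALR*, *PDIA4* and *PDIA6* lay at 300 CPM or more, where 13.4% were lower and 62.3% higher.

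**Figure D1:**
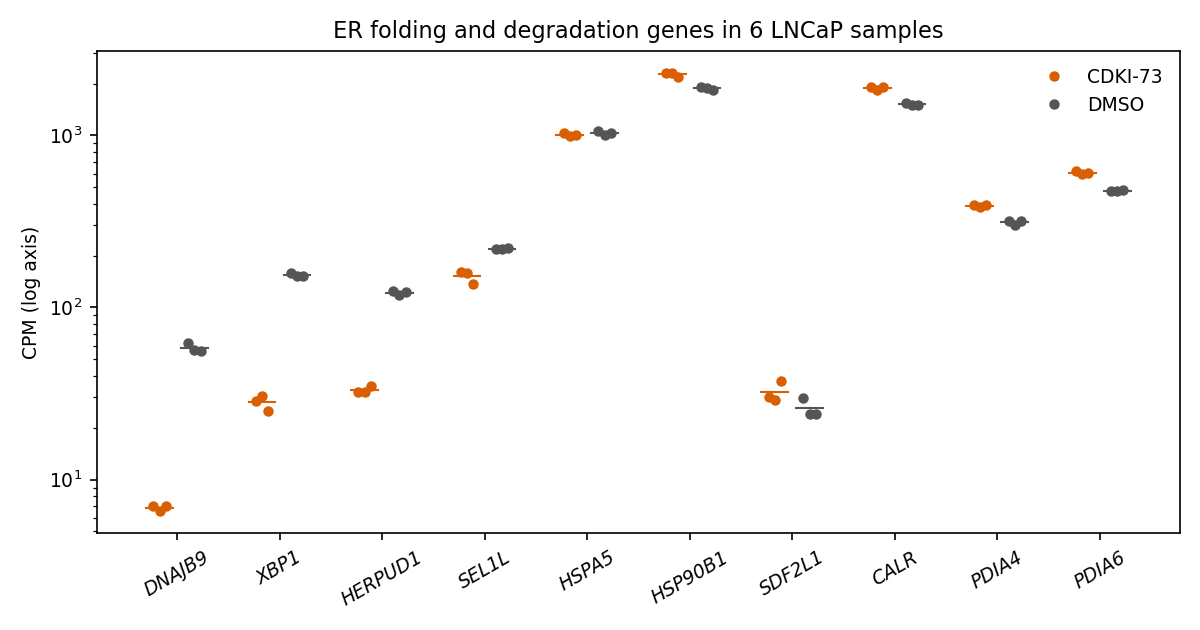
CPM of the 10 members in each sample on a log axis, with CDKI-73 in orange left of DMSO in grey. Points are samples and bars are group means, and genes run from the largest fall to the largest rise. *DNAJB9* averaged 6.87 CPM with CDKI-73 and 58.2 CPM with DMSO, while *HSPA5* averaged 1009 and 1031 CPM.

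Among the lumenal chaperones, *HSPA5* encodes BiP, the Hsp70 of the ER, which binds unfolded chains and holds the UPR sensors inactive. It was listed at 1026, 995 and 1005 CPM in the CDKI-73 samples and at 1058, 1006 and 1030 CPM in the DMSO samples. The groups overlapped. Its log2 fold change was −0.03, with a 95% interval of −0.13 to 0.07 (adjusted p = 0.52 from limma). *HSP90B1* encodes GRP94, the Hsp90 of the ER, a chaperone of integrins and Toll-like receptors. Its level was 2312, 2287 and 2185 CPM with CDKI-73 and 1913, 1890 and 1838 CPM with DMSO. Every treated sample lay above every vehicle sample, and limma gave a log2 fold change of 0.27 ± 0.047 (SE, adjusted p = 0.0010). The gene overlaps *C12orf73* on the opposite strand over 13169 bases, and the strand column the authors counted is not given in the sources used here. *C12orf73* was listed at 33.0 to 38.5 CPM, low beside *HSP90B1*. The pseudogene *HSP90B2P* was listed at 4.04 to 4.39 CPM with CDKI-73 and 3.12 to 3.65 CPM with DMSO, and reads may be shared with it.

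*CALR* encodes calreticulin, a calcium-binding chaperone that holds newly made glycoproteins by their sugar chains. It was at 1905, 1827 and 1919 CPM with CDKI-73, and at 1543, 1501 and 1507 CPM with DMSO. The groups did not overlap (log2 fold change 0.31, standard error 0.044, adjusted p = 2.9e-04 from limma). The 2 protein disulfide isomerases, which form and reshuffle disulfide bonds in folding proteins, moved by much the same amount. *PDIA4*, also called ERp72, had 391.3, 384.8 and 394.0 CPM in CDKI-73 samples and 318.8, 299.5 and 318.2 CPM in DMSO samples. *PDIA6*, also called P5, had 621.9, 593.6 and 601.8 CPM in CDKI-73 samples and 475.1, 473.9 and 478.4 CPM in DMSO samples. In both genes every treated sample was above every vehicle sample. Their log2 fold changes were 0.32 (standard error 0.043, adjusted p = 1.9e-04 from limma) and 0.35 (standard error 0.040, adjusted p = 7.3e-05 from limma). These rises were of a size common at such levels. Of the 560 tested genes with a mean of at least 300 CPM, 62.3% were higher and 13.4% lower by limma, with a median log2 fold change of 0.24.

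Of the BiP cofactors *DNAJB9* fell, while *SDF2L1* had a small rise that depended on single samples and on the scaling. *DNAJB9* encodes ERdj4, a J-domain protein that stimulates BiP, delivers misfolded proteins to ERAD and is itself a target gene of XBP1. It was listed at 7.02, 6.55 and 7.05 CPM in CDKI-73 samples, against 62.4, 56.4 and 55.9 CPM in DMSO samples. The highest treated sample was far below the lowest vehicle sample, a difference of 8.47-fold in the means. Its log2 fold change of −3.06 (95% interval −3.22 to −2.91, adjusted p = 2.1e-08 from limma) was the 318th lowest of all 13373 genes. *SDF2L1* encodes a small lumenal protein found in complexes with BiP and its J-domain partners. Its CPM were 30.1, 28.9 and 37.3 with CDKI-73 and 29.6, 24.2 and 23.9 with DMSO, so that the groups overlapped. In limma the log2 fold change was 0.31 ± 0.12 (SE, adjusted p = 0.043). This call rests on single samples: without CDKI-73 replicate 3 the log2 fold change was 0.19 (adjusted p = 0.056 from limma), and it was also lost without CDKI-73 replicate 1 (adjusted p = 0.057), DMSO replicate 2 (adjusted p = 0.13) or DMSO replicate 3 (adjusted p = 0.14).

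Among the ERAD genes, *SEL1L* encodes the adaptor of the HRD1 ubiquitin ligase, through which misfolded lumenal proteins reach the ligase. It had 161.6, 158.8 and 136.5 CPM with CDKI-73 and 219.1, 219.6 and 221.0 CPM with DMSO. The groups were separate, and limma gave a log2 fold change of −0.53 ± 0.066 (SE, adjusted p = 1.2e-04). *HERPUD1* encodes a membrane protein with a ubiquitin-like domain that joins the same ligase complex and is strongly induced by ER stress. It was at 32.3, 32.4 and 35.2 CPM in CDKI-73 samples, against 125.5, 117.5 and 122.7 CPM in DMSO samples. In limma the log2 fold change was −1.87 ± 0.053 (SE, adjusted p = 4.6e-08), the 1237th lowest. The gene overlaps long non-coding RNA genes on the same strand, over 1065 and 699 bases. Neither was matched to a listed gene, and the effect of this overlap on the *HERPUD1* level was not measured. The ratio of *HERPUD1* to *SEL1L* within a sample, which no scaling of the sample alters, was 0.221 ± 0.032 (SD, n = 3) with CDKI-73 and 0.554 ± 0.019 (SD, n = 3) with DMSO.

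*XBP1* encodes the transcription factor that the sensor IRE1 activates by splicing its mRNA, and which drives ERAD genes and part of the chaperone genes. It had 28.8, 30.7 and 25.2 CPM in CDKI-73 samples, against 158.9, 153.4 and 151.5 CPM in DMSO samples. The groups were far apart, with a 5.48-fold difference in the means. The log2 fold change was −2.45 (95% interval −2.62 to −2.29, adjusted p = 5.3e-08 from limma), the 676th lowest. Spliced and unspliced *XBP1* cannot be told apart in a table of gene totals. Set against BiP, *XBP1* was at 0.0280 ± 0.0029 of the *HSPA5* value (SD, n = 3) with CDKI-73 and at 0.150 ± 0.0027 (SD, n = 3) with DMSO. *DNAJB9* was at 0.00681 ± 0.00022 of the *HSPA5* value with CDKI-73 and at 0.0564 ± 0.0024 with DMSO (SD, n = 3 each). These ratios were chosen after the values were seen and were not tested.

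**Figure D2:**
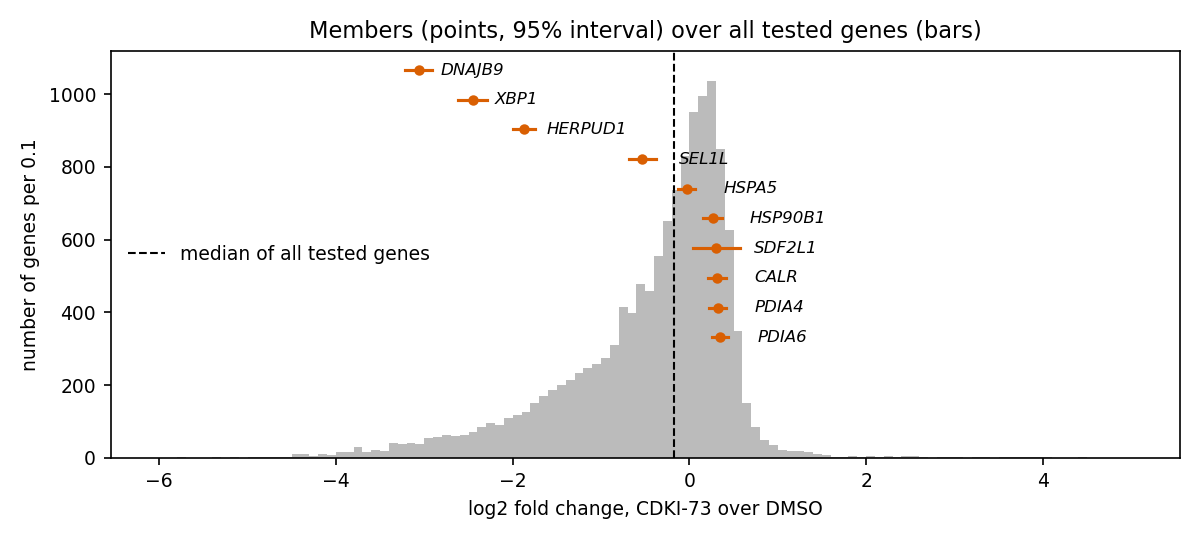
Log2 fold change (CDKI-73 over DMSO) on the x axis and the number of tested genes per 0.1 on the y axis (grey bars), with the members as orange points and 95% intervals from limma, spread in height only to be read. A dashed line marks the median gene (−0.18). *DNAJB9*, *XBP1* and *HERPUD1* lie in the long lower tail, *SEL1L* lies between them and the peak, and the other 6 lie near the peak.

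Of the 5 members with an ERSE, *XBP1* fell (−2.45), and *HSP90B1* (0.27), *CALR* (0.31) and *PDIA6* (0.35) were higher on the deposited scale. *HSPA5* (−0.03) did not pass the test on that scale. Of the 2 members with an ERSE-II, *HERPUD1* fell (−1.87) and *SDF2L1* (0.31) was higher on the deposited scale. Of the 3 members with neither element, *DNAJB9* and *SEL1L* were lower and *PDIA4* higher on the deposited scale, the call of *SEL1L* being lost where the samples were scaled to their upper quartile (−0.04). A relation between these elements and the response was not tested. The genomic span of the members that fell was 4977 bases for *DNAJB9*, 6010 for *XBP1*, 12723 for *HERPUD1* and 62307 for *SEL1L*. It was 1998 bases for *SDF2L1*, 5881 for *CALR*, 6491 for *HSPA5*, 17517 for *HSP90B1*, 25455 for *PDIA4* and 54322 for *PDIA6*.

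The members spanned a wide range of levels. Divided by the length of the canonical transcript (GENCODE release 44), the order in DMSO cells, in CPM per kilobase, was *CALR* (798), *HSP90B1* (676), *HSPA5* (263), *PDIA6* (209), *PDIA4* (113), *XBP1* (86.3), *HERPUD1* (42.7), *SDF2L1* (31.4), *SEL1L* (27.8) and *DNAJB9* (24.2). No neighbours in that order overlapped over the 3 DMSO samples. In CDKI-73 cells, *PDIA6* (266 CPM per kilobase) and *HSPA5* (257 CPM per kilobase) overlapped, and *XBP1* (15.8), *HERPUD1* (11.7) and *DNAJB9* (2.85) were the lowest 3. All 10 members together took 0.640% ± 0.0098 of the counted reads with CDKI-73 and 0.580% ± 0.0092 with DMSO (SD, n = 3 each). *DNAJB9*, *HERPUD1* and *XBP1* together took 0.00684% ± 0.00012 with CDKI-73 and 0.0335% ± 0.0011 with DMSO (SD, n = 3 each).

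CPM are shares, so the direction of the small changes depends on the scaling. The falls of *DNAJB9*, *XBP1* and *HERPUD1* were at least 2-fold and past the threshold in all 18 settings tried, at −3.47 to −2.57, −2.86 to −1.96 and −2.28 to −1.37 on the log2 scale. *GAPDH*, *HPRT1* and *ACTB*, the reference genes of the qRT-PCR in the study, were themselves higher with CDKI-73 on the deposited scale. *GAPDH* was at 3059 to 3571 CPM with CDKI-73 and 2226 to 2325 CPM with DMSO. Scaling to these genes moved the median of all genes by −0.41. The 5 members that were higher then had log2 fold changes of −0.14 to −0.06 and none passed, while *HSPA5* was lower (−0.44, adjusted p = 6.6e-05 from limma). Scaled to the upper quartile, which moved the median by 0.50, the 5 members were at 0.76 to 0.85. *HSPA5* was higher there (0.47, adjusted p = 1.8e-05 from limma), as it was by TMM (0.12, adjusted p = 0.032 from limma). With the upper quartile *SEL1L* was at −0.04 (adjusted p = 0.60 from limma). Relative to the median gene, *HSPA5* was at 0.14 and the 5 higher members at 0.44 to 0.52. Genes at 300 CPM or more had a median of 0.24 on the deposited scale. *HSPA5* (−0.03) lay below that median, *HSP90B1* (0.27) near it, and *CALR* (0.31), *PDIA4* (0.32) and *PDIA6* (0.35) above it. *SDF2L1* belongs to the 20 to 100 CPM range, where the median was −0.24. RNA per cell was not measured, and a larger share cannot be told apart from a smaller loss than that of other transcripts.

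**Figure D3:**
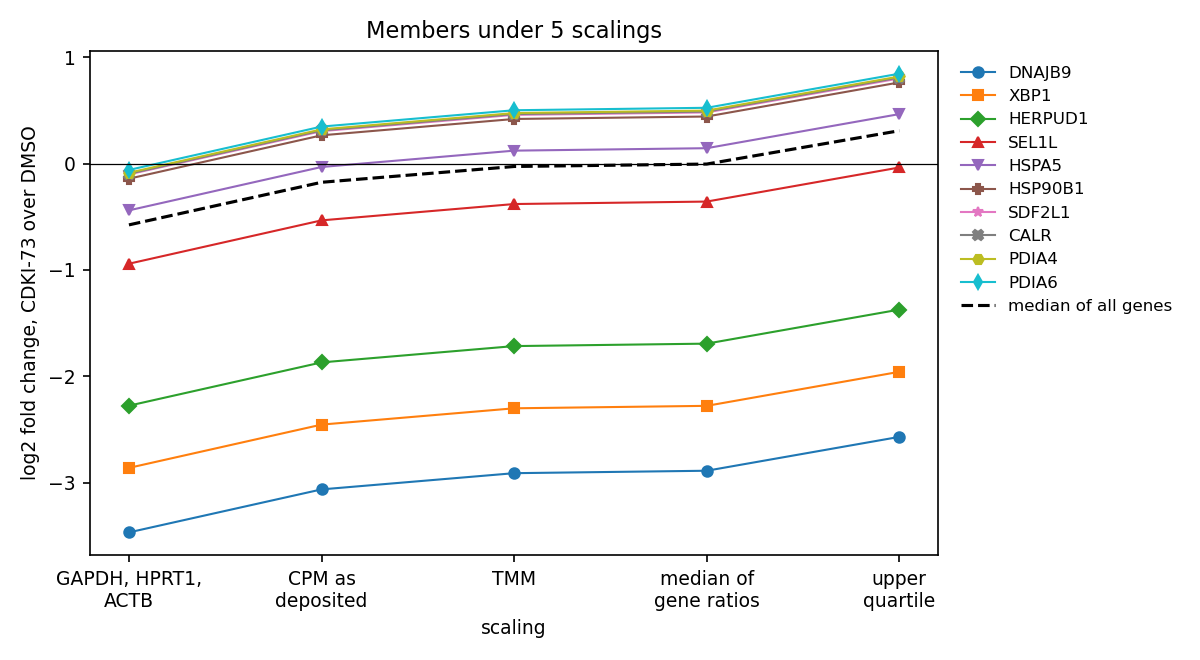
Log2 fold change (CDKI-73 over DMSO, y axis) of each member under 5 scalings (x axis), with the median of all tested genes as a dashed line. The scaling shifts all genes together. *DNAJB9*, *XBP1* and *HERPUD1* stay at −1.37 or lower in each, and *HSPA5* and the 5 higher members stay above the median line. That line covers genes of all levels. On the deposited scale *HSPA5* (−0.03) lay below the median of genes at 300 CPM or more (0.24).

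Other genes of the compartment were counted in 3 lists. The lists were written from general knowledge with earlier results of these data known, and no set was tested. All values are log2 fold changes on the deposited scale. Of 24 further ER chaperones and folding enzymes, 23 were tested (*TXNDC5* was too low), and 2 were lower (8.70%, against 48.2% of all tested genes) and 13 higher (56.5%, against 24.2%) by limma. The median log2 fold change was 0.18 for the list and −0.18 for all genes. The list was not matched for level, and the shares of all genes varied with level. From 20 to 100 CPM 22.8% were higher and 54.3% lower, and at 300 CPM or more 62.3% were higher and 13.4% lower. The largest rises were those of *HYOU1* (0.49), an exchange factor of BiP, *P4HB* (0.46), the founding disulfide isomerase, *CRELD2* (0.41), an ER stress-induced lumenal protein gene, and *SIL1* (0.38), another BiP exchange factor. *HYOU1* was listed at 469.3, 444.6 and 428.3 CPM with CDKI-73 and 305.5, 313.9 and 339.7 CPM with DMSO, with no overlap. The 2 lower genes were *TXNDC11* (−1.07), a thioredoxin domain protein, and *SDF2* (−0.39), the relative of *SDF2L1*. With the reference gene scaling 15 of the 23 were lower and 0 higher, where 73.9% of all tested genes were lower and 2.95% higher. With the upper quartile 1 was lower and 21 were higher, where 29.5% of all tested genes were lower and 54.7% higher.

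Of 28 further ERAD genes, 13 were lower (46.4%, against 48.2% of all tested genes) and 9 were higher (32.1%, against 24.2%), with a median of −0.03. The share that fell was thus near that of all genes. *RNF139*, an ER ubiquitin ligase also called TRC8, fell most: it had 6.12, 6.76 and 3.47 CPM in CDKI-73 samples against 50.3, 53.6 and 50.5 CPM in DMSO samples (log2 fold change −3.27, adjusted p = 2.4e-06 from limma). Next were *HERPUD2* (−1.62), the paralog of *HERPUD1*, and *EDEM3* (−1.32), which trims mannose from glycoproteins bound for degradation. *SYVN1*, which encodes the HRD1 ligase itself, was at −0.76. Its partners *SEL1L* (−0.53) and *HERPUD1* (−1.87) were also lower, the call of *SEL1L* being lost with the upper quartile. Whether the genes of this complex moved jointly was not tested. Among the higher ERAD genes were *OS9* (0.50), a lectin that brings glycoproteins to the SEL1L complex, *AUP1* (0.39), which recruits a ubiquitin-conjugating enzyme, *STUB1* (0.37), a cytosolic ligase, and *TMUB1* (0.29). The counts moved with the scaling, as did those of all genes. With the reference genes 22 were lower and 0 higher (73.9% and 2.95% of all tested genes). With the upper quartile 6 were lower and 21 higher (29.5% and 54.7% of all tested genes).

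Of 12 UPR sensors and transcription factors, 8 were lower (66.7%, against 48.2% of all tested genes) and 1 was higher (8.33%, against 24.2%), with a median of −0.25. With the upper quartile 4 were lower and 7 higher, where 29.5% of all tested genes were lower and 54.7% higher. With the reference genes 11 were lower and 0 higher, where 73.9% of all tested genes were lower and 2.95% higher. *CEBPB*, a bZIP factor induced by stress, had 2.67, 2.35 and 1.71 CPM with CDKI-73 and 28.1, 26.5 and 25.8 CPM with DMSO (log2 fold change −3.54). *DDIT3*, which encodes CHOP, the factor of prolonged ER stress, was at −3.40. The sensor genes *ERN1*, which encodes IRE1, and *EIF2AK3*, which encodes PERK, were at −1.15 and −0.95, and all 4 passed the limma threshold. The sensor gene *ATF6*, chosen for mention after its value was seen, was at −0.04 (adjusted p = 0.55 from limma), and *ATF6B*, its relative, was the one gene higher (0.45), a call lost with the reference gene scaling (0.04, adjusted p = 0.60 from limma).

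**Figure D4:**
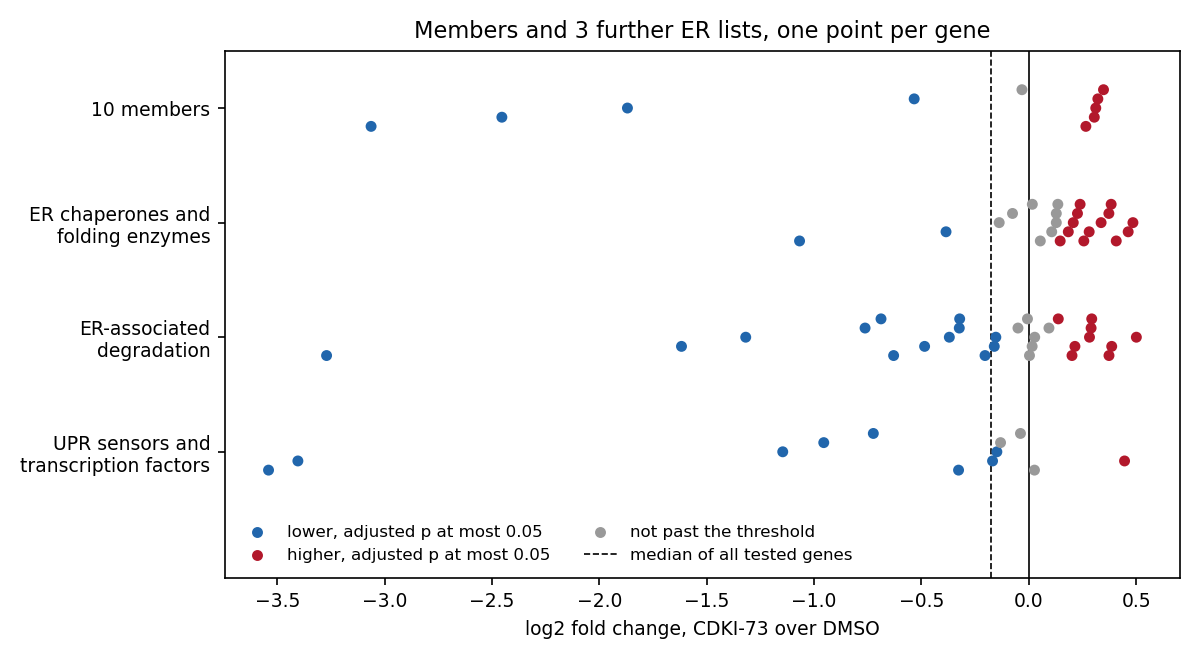
Log2 fold change (CDKI-73 over DMSO, x axis) of the 10 members and of 3 further lists, one point per gene and spread in height only to be read. Blue points were lower and red points higher where the adjusted p from limma was at most 0.05, grey points did not pass, and a dashed line marks the median tested gene (−0.18). Apart from *TXNDC11* and *SDF2*, the chaperones and folding enzymes lie between −0.14 and 0.49 on the deposited scale. The lowest points belong to *CEBPB*, *DDIT3* and *RNF139*. After scaling to the reference genes 15 of the 23 chaperones and folding enzymes were lower, as were 73.9% of all tested genes.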

How the data were processed

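PolyA+ RNA of 6 LNCaP samples was sequenced in a stranded single-end protocol. The authors aligned the reads with STAR (hg38) and deposited gene-level CPM (reads of a gene per 1000000 counted reads, rounded to 0.01, without a TMM factor). The submitters' notes name FastQC, edgeR 3.3 and R 3.2.3, while the sources used here do not name the gene annotation or the strand column. Of the table's columns, 0 were left unmatched to a sample.

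Genes with a mean of at least 0.5 CPM entered limma 3.58.1 (R 4.3.3) as log2(CPM + 0.1) (eBayes with trend, no block). The paper tested TMM normalized counts, which CPM do not allow; whole reads were inferred only for depth and for one alternative with voom. Fold changes are understated for low genes. Counted reads were 46.1 to 60.9 M per sample, so 1 read was worth 0.0164 to 0.0217 CPM. The paper calls the replicates biological, but the labels do not say whether they were separate cultures. The p-values therefore cover the spread between these samples. The limma step was tested on simulated data.

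The members and lists were chosen with earlier results of these data known. Named genes are all members and, from each further list, up to 4 of the largest falls and rises past the threshold. Symbols and coordinates came from RefSeq (GRCh38.p14), lengths from GENCODE 44. Protein sequences were not used here. Alternatives covered pseudocount, filter, scaling, test, replicate block and each sample left out.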

Additional observations from a re-analysis of the deposited data

How the results depend on the processing

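Counts of lower and of 2-fold members were within 1.5 times the values given under all 18 alternatives. Scaling by *GAPDH*, *HPRT1* and *ACTB* left 0 members higher, and 73.9% of all tested genes were lower and 2.95% higher. It gave 15 lower and 0 higher chaperones and folding enzymes, 22 lower and 0 higher ERAD genes, and 0 higher UPR regulators. Under it the log2 fold change turned to −0.14 for *HSP90B1*, −0.10 for *CALR*, −0.086 for *PDIA4*, −0.060 for *PDIA6*, −0.10 for *SDF2L1*, −0.024 for *SIL1*, −0.021 for *AUP1*, −0.034 for *STUB1* and −0.11 for *TMUB1*. None of these passed the threshold. Scaling by the upper quartile gave 1 lower and 21 higher chaperones and folding enzymes, 6 lower and 21 higher ERAD genes, and 4 lower and 7 higher UPR regulators. Of all tested genes 29.5% were lower and 54.7% higher under it. The upper quartile turned *HSPA5* to 0.47 and *SDF2* to 0.11. *HSPA5* was at 0.12 by TMM (adjusted p = 0.032 from limma) and 0.14 with median-of-ratios factors (adjusted p = 0.014 from limma). With voom in limma it was at 0.12 (adjusted p = 0.028). It passed as higher in each of these and with the upper quartile, which each gave 6 higher members. With the reference genes *HSPA5* passed as lower (−0.44, adjusted p = 6.6e-05 from limma), which gave 5 lower members. By TMM, median-of-ratios factors and voom, higher ERAD genes numbered 14, 15 and 14, and higher UPR regulators 2, 3 and 2. In the same order 35.2%, 36.6% and 35.5% of all tested genes were higher. These shifts follow from the scaling, which moves all genes one way. The call of *SDF2L1* was also lost with no filter (adjusted p = 0.066), without the trend (adjusted p = 0.070) and with a replicate block (adjusted p = 0.068, limma).

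Same-numbered samples did not deviate together (correlations of −0.29, 0.11 and −0.23), so the numbers were not taken as pairs. Between samples of different numbers the correlations were −0.22 to 0.34, the highest for CDKI-73 replicate 3 with DMSO replicate 1. With the replicate block 4 members were lower and 4 higher, 3 of the lower by at least 2-fold. Of all tested genes 46.1% were lower and 20.8% higher with it. The block gave 2 lower and 12 higher chaperones and folding enzymes, 12 lower and 8 higher ERAD genes, and 6 lower and 1 higher UPR regulators. With each sample left out, 4 members stayed lower and 4 to 5 higher, with 12 to 13 lower ERAD genes and 6 to 9 lower UPR regulators. Of all tested genes 45.4% to 49.8% were then lower and 19.8% to 25.5% higher. At the depth of these libraries 1 read is worth at most 0.0217 CPM, small beside every member.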

Other observations

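Outside the members, the exact ERSE spelling stood in the windows of 10 tested genes, of which 4 were lower and 4 higher by limma (48.2% and 24.2% of all tested genes), with a median log2 fold change of −0.02. The list came from sequence alone. It held *CRELD2* (0.41), *CANX* (0.18) and *ERO1LB* (0.21), which rose on the deposited scale, *SERP1* (0.02, adjusted p = 0.77 from limma), and *FICD*, which fell most (−1.97, adjusted p = 2.6e-05 from limma). *FICD* encodes the enzyme that attaches and removes AMP on BiP. It averaged 1.95 CPM with CDKI-73 and 7.86 CPM with DMSO. The exact ERSE-II spelling stood in 11 tested genes outside the members, with a median of 0.19. Of these 3 were lower and 5 higher (48.2% and 24.2% of all tested genes), with no matching for level. Among them *HYOU1* (0.49) and *NUCB1* (0.54), a calcium-binding protein gene, rose on the same scale, and *RAD9A* (−1.13) and *SHCBP1* (−0.82) fell. The genes named here were chosen after their values were seen.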
